A study of Mus musculus with 3 samples.

Results

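The genes for the proteins of the cytosolic ribosome were compared across 3 libraries of mouse dural cells. A gene was taken where it is protein-coding and its symbol is Rpl or Rps with a number (with or without a final a, l or x), Rplp0, Rplp1, Rplp2 or Rpsa. This rule used no measured value and found 80 genes of the 54532 in the files: 46 of the large subunit, 3 of its stalk and 31 of the small subunit. They lie on 19 chromosomes, and 4 of the genes are on X.

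The cells came from the dorsal dura mater, the tough outermost sheath of the brain, of mice inoculated 12 days earlier with 4T1-DM cells, a model of dural metastasis made with the 4T1 mammary carcinoma line. Mice of the 3 groups had received PBS, ZOL or ZOL+Ang2, so every group carried the tumour cells. The labels expand neither ZOL nor Ang2, and the sources used here state no strain, age, sex or dose. Values of the libraries are given throughout in the order PBS, ZOL, ZOL+Ang2. Each group was 1 library from a pool of 6 mice, so no test was possible and every value describes a library, not the spread between animals. The labels give the cells as CD45-CD31+PDPN+, a combination used for lymphatic endothelium. Transcripts that mark such cells were partly absent. All 10 pan-endothelial genes examined had reads in every library, and 5, 5 and 5 of 7 lymphatic endothelial genes did. In reads scaled to a common library total (CPM), the pan-endothelial genes summed to 3693, 4153 and 1396. The lymphatic genes summed to 275, 170 and 218 CPM, so neither sum was lowest in PBS. Single genes of the lists differed from these sums. Pecam1 (CD31) had 2, 7454 and 1556 reads. Prox1, a transcription factor of lymphatic endothelium, had 2, 0 and 0 reads, and Lyve1, a lymphatic receptor, had 0 reads in every library. The cells are therefore called dural cells here.

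A ribosome joins a small subunit, which reads the messenger RNA, to a large subunit, which forms the peptide bonds. Most of its proteins are present in a single copy per ribosome, so their genes are known for being expressed together and at high levels. Their messages begin with a run of pyrimidines, the 5′ TOP sequence, through which growth signals such as mTOR control their translation. Dividing cells make many ribosomes. Mammalian genomes hold many processed pseudogenes of these genes, copies of the spliced message that were inserted back into the genome, and reads from a gene and a recent copy can be hard to tell apart.

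The sequences at the start sites show where runs of pyrimidines lie. Each line gives 15 bases before and 15 bases from the annotated RefSeq start (GRCm38.p6), 5′ to 3′ on the gene's strand, with the longest run of C and T in capitals. The genes were picked because results below turn on them. The windows are Rpl7a chr2:26910792-26910821 (plus strand), Rpl14 chr9:120571502-120571531 (plus strand), Rpl4 chr9:64173372-64173401 (plus strand), Rpl12 chr2:32961697-32961726 (plus strand), Rpl26 chr11:68901551-68901580 (plus strand), Rps6 chr4:86857353-86857382 (minus strand), Rps27 chr3:90213634-90213663 (minus strand) and Rps27l chr9:66946071-66946100 (plus strand).
Rpl7a: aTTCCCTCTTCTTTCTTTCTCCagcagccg
Rpl14: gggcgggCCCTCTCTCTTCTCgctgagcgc
Rpl4: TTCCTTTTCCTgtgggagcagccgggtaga
Rpl12: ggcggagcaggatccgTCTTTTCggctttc
Rpl26: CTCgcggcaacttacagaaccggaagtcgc
Rps6: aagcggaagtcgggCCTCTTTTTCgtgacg
Rps27: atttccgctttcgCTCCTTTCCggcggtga
Rps27l: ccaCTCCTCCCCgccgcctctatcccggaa

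The longest run had 21 bases in Rpl7a, 14 in Rpl14 and 10 in Rps6, and spanned the annotated start. In Rpl4 (11 bases) and Rps27l (9 bases) it ended before the annotated start, and in its window Rpl26 had no run longer than 3 bases. Another annotated start of Rps27l, not shown, had a longest run of 4 bases. Gene starts in the GENCODE annotation used for the reads can lie elsewhere. That of Rpl4, 64173375, lies within its run, and those of Rpl7a, Rpl14, Rpl12, Rpl26 and Rps6 lie outside their windows. Of the 80 genes, 60 were in the promoter table, which holds 27025 genes. In the 100 bases around the start, the letters CTTTC stood on the gene's strand in 53.3% of the 60 and in 14.6% of all genes, and on the other strand in 11.7% and 13.8%. TCTTTC, which overlaps CTTTC, stood on the gene's strand in 26.7% and 4.53%, CTTTT in 25% and 12.6%, and CTTCC in 46.7% and 22.2%. Of the first 10 transcribed bases a mean of 6.25 were C or T, against 4.91 over all genes. These are letter matches and describe no factor's binding.

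Reads recovered from the deposited values numbered 1675532, 16586760 and 9204901, which makes PBS the least precise library. CPM stands for reads scaled to a common library total. The PBS library also had another make-up. Named nuclear protein-coding genes held 53.1%, 87.0% and 83.5% of reads, mitochondrially encoded genes 12.1%, 1.52% and 1.19%, and the gene model Gm10800 alone 16.5%, 0.885% and 2.91%. The reads of named nuclear protein-coding genes differed in make-up too. Chemoreceptor genes (olfactory and vomeronasal) held 5.06%, 0.0548% and 0.172% of them. What these differences contribute to a comparison with PBS was not tested, and they bear on every fold against PBS below. Intervals cover counting error only.

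The share of reads on the ribosomal protein genes was lower in PBS than in either other library. It was 2.85% in PBS (exact 95% binomial interval 2.82 to 2.87), 5.88% in ZOL (5.86 to 5.89) and 6.05% in ZOL+Ang2 (6.04 to 6.07). Within the reads of named nuclear protein-coding genes the shares lay closer, at 5.37%, 6.76% and 7.25%. The order was the same on both denominators, and the PBS share was 1.26-fold below that of ZOL on the second. In pooled cells, fewer cells of a type and less RNA per cell cannot be told apart. In summed RPKM as deposited, by contrast, the genes came to 26869, 25197 and 28814, so that PBS was not the lowest.

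Within each library the genes covered a wide range, and their order was much the same in all 3. The median level per length was 138, 313 and 321 CPM per kb of exon, with the third quartile 4.44, 3.41 and 3.73 times the first. The 10 highest genes held 45.1% of the summed level per length in PBS and 39.8% in ZOL+Ang2, with ZOL in between. Spearman's correlation of level per length between PBS and ZOL was 0.85 across the 80 genes and -0.01 across 9442 other protein-coding genes of at least 10 CPM. Among genes of at least 100 CPM it was 0.79 across 70 ribosomal protein genes and 0.33 across 1439 others. Between ZOL and ZOL+Ang2 the latter values were 0.98 and 0.78. Points share their library and exon length, and they are genes, not replicates.

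Rplp1, a stalk protein, and Rpl41, the shortest protein of the large subunit, led the order. Rplp1 (ENSMUSG00000007892, chromosome 9, 61913284 to 61914542 in mm10) stood at 1278, 2257 and 2443 CPM per kb. Rpl41 (ENSMUSG00000093674, chromosome 10, 128548114 to 128549305) stood at 535, 2332 and 2496 CPM per kb. Rplp1 was the highest gene in PBS and Rpl41 in ZOL and in ZOL+Ang2. Rpl36 followed with 1245, 1679 and 1452 CPM per kb, Rps29 with 810, 1454 and 1315, and Rpl32 with 608, 1145 and 1392. Ranks by the mean of the libraries depend on the length used. With the length of the main transcript instead of all exons, Rpl41 ranked 1, Rplp1 ranked 6 and Rpl36 ranked 12. At the other end, Rpl3l and Rpl10l had 0 reads in every library, Rpl39l had 4 reads in ZOL and 0 elsewhere, and Rpl24, Rps10 and Rpl29 were the lowest of the genes expressed in most tissues.

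**Figure D1:**
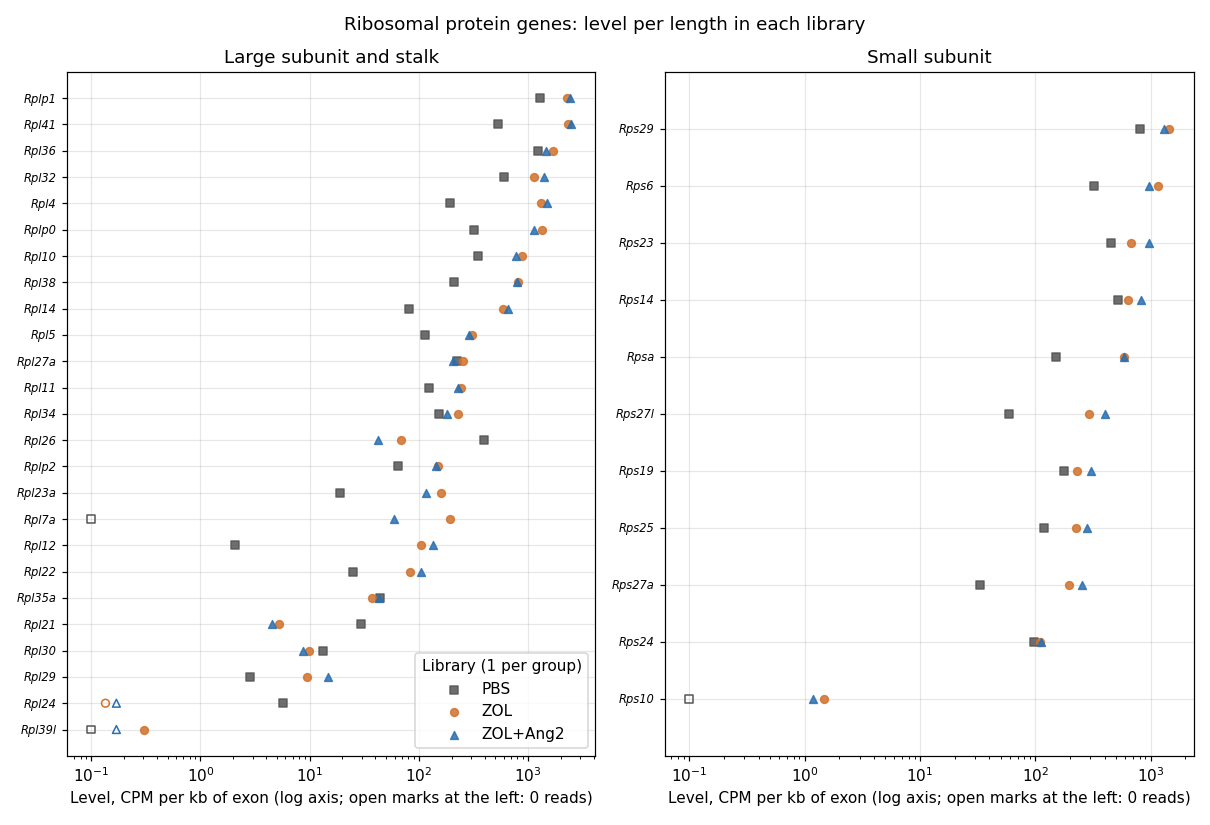
Level of the ribosomal protein genes named for their level, their fold, 0 reads in a library, the stalk or a known role, in CPM per kb of exon on a log axis, in the PBS (squares), ZOL (circles) and ZOL+Ang2 (triangles) library, 1 library per group. Open marks at the left edge stand for 0 reads. The ZOL and ZOL+Ang2 marks lie close together for most genes and to the right of PBS, with Rpl26 and Rpl21 the other way round and Rpl7a at 0 reads in PBS.

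ZOL against PBS asked how dural cells of tumour-bearing mice differed after ZOL. In CPM, most ribosomal protein genes stood higher in ZOL, by about the amount that other abundant genes did. Of the 80 genes, 75 had a mean of at least 10 CPM, the filter used for all genes. Of these 75, 45 were at least 2-fold higher in ZOL on the scale of log2(CPM + 5), 2 were at least 2-fold lower and 28 lay within 2-fold. Over all 10942 genes tested 49.2% were higher and 29.4% lower, 78.7% in all, and over the 1575 genes of at least 100 CPM 58.5% and 10.2%. The median log2 fold was 1.34 for the ribosomal protein genes, 0.94 for all genes and 1.38 for those of at least 100 CPM. The log2 folds of the ribosomal protein genes lay closer together, with an SD of 1.2 against 2.70 for all genes. Among genes of at least 100 CPM the SD was 1.11 against 2.34.

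How many genes stood higher depended on the scaling between the libraries. With reads of named nuclear protein-coding genes as the denominator 21 were higher and 5 lower, with median-of-ratios factors 25 and 5, and with the library scaling of the deposited RPKM 11 and 8. These scalings moved the median of all genes by -1.31, -1.11 and -1.77 on the log2 scale. Relative to the median of all genes, that of the ribosomal protein genes stood 0.40 higher as computed here, 0.84 higher on protein-coding reads and 0.89 higher with the RPKM scaling. Among genes of at least 50 CPM it stood at -0.04 relative to all genes. Their summed CPM was 2.42-fold higher in ZOL (95% counting interval 2.39 to 2.44), and for reads rescaled to the library totals behind the RPKM the same ratio was 0.966.

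**Figure D2:**
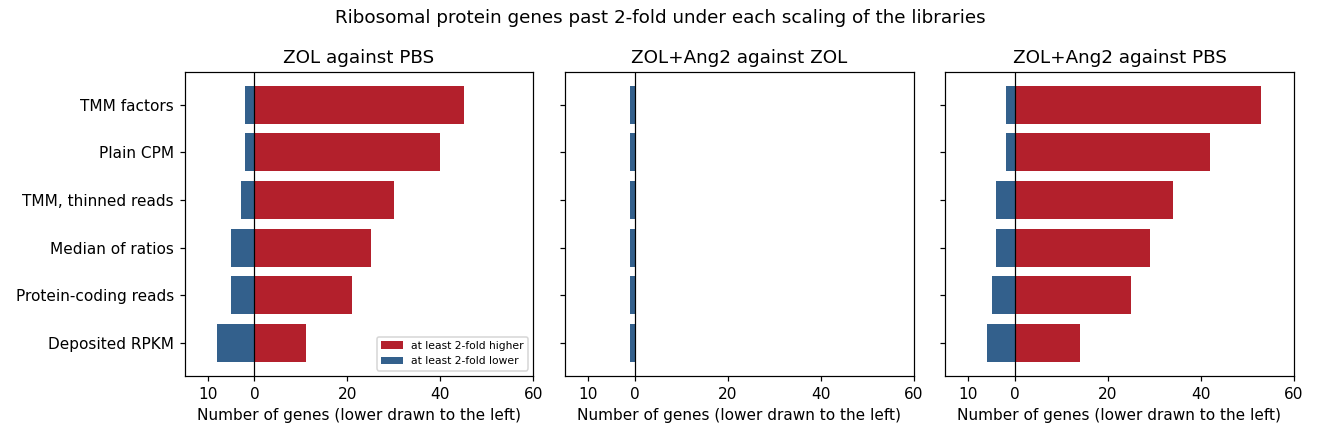
Number of ribosomal protein genes at least 2-fold higher (bars to the right) and at least 2-fold lower (bars to the left) in each comparison, under 6 scalings of the libraries. Against PBS the number higher in ZOL runs from 45 with TMM factors to 11 with the scaling of the deposited RPKM, and between ZOL+Ang2 and ZOL it is 0 throughout.

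The 3 stalk genes make the large subunit's arm that recruits elongation factors, with Rplp0 as its anchor. Rplp0 (ENSMUSG00000067274, chromosome 5, 115559467 to 115563727) had 537, 2235 and 1894 CPM, and was 4.17-fold higher in ZOL than in PBS (3.91 to 4.44). Rplp2 had 133, 311 and 299 CPM (2.33-fold, 2.05 to 2.66). Rplp1 had 638, 1126 and 1219 CPM and lay within 2-fold of PBS. PBS was the lowest library for each of the 3 in CPM, and in the deposited RPKM for Rplp0 only. There the ratio of ZOL to PBS was 1.67 for Rplp0, 0.706 for Rplp1 and 0.932 for Rplp2, and Rplp1 was highest in PBS (2120, 1496 and 1827 RPKM).

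Of the 42 large subunit genes tested, 27 were at least 2-fold higher in ZOL, 2 lower and 13 within 2-fold (median log2 fold 1.59). Rpl7a (ENSMUSG00000062647, chromosome 2, 26910764 to 26913318) had 0, 5353 and 923 reads. Set against a floor of 3 reads in PBS, it was 211-fold higher in ZOL. The exact 95% counting interval had a lower limit of 172-fold. Rpl12 (ENSMUSG00000038900, chromosome 2, 32961559 to 32965345), at the base of the stalk, had 14, 5863 and 4248 reads and was 49.6-fold higher (29.5 to 90.7). These are the widest gaps of the family, and both rest on very few PBS reads. Both genes also have processed pseudogenes, whose reads are given below and which the counting intervals do not cover.

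Rpl14, Rpl4 and Rpl23a came next on the log2(CPM + 5) scale. Rpl14 had 133, 972 and 1093 CPM (7.31-fold higher in ZOL, 6.45 to 8.33). Rpl4, which lines the exit tunnel of the nascent chain, had 384, 2634 and 2970 CPM (6.87-fold, 6.38 to 7.40). Rpl23a, a docking site at the tunnel exit, had 16.1, 135 and 99.2 CPM (8.39-fold, 5.86 to 12.5, from 30 PBS reads). Its 13 processed pseudogenes had 67, 2767 and 1243 reads, more than the 30, 2127 and 870 on the gene. Gene and copies together stood 5.97-fold higher in ZOL than in PBS, and at 0.773 of the ZOL level in ZOL+Ang2. For each of these genes both other libraries lay well above PBS. Rpl3, close to the peptidyl transferase centre, had 502, 1688 and 1851 CPM. Rpl5 and Rpl11, which with 5S rRNA bind Mdm2 when ribosome assembly fails, had 450, 1206 and 1139 CPM and 337, 662 and 618 CPM. Rpl10, added late in maturation, had 715, 1815 and 1600 CPM. Rpl38, needed in mouse embryos for translation of some Hox messages, had 114, 439 and 426 CPM.

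A few large subunit genes went the other way. Rpl26 (ENSMUSG00000060938, chromosome 11, 68901583 to 68906989) had 577, 99.1 and 61.6 CPM, and was 5.82-fold lower in ZOL (5.38 to 6.30). Rpl21 (ENSMUSG00000041453, chromosome 5, 146832890 to 146837032) had 99.6, 17.8 and 15.4 CPM (5.60-fold lower, 4.63 to 6.77). Both were highest in PBS, the reverse of the family as a whole. Rpl30 with 40.4, 29.6 and 26.1 CPM, Rpl13a with 25.8, 19.5 and 13.3, and Rpl35a with 155, 133 and 153 CPM were also highest in PBS but within 2-fold. PBS was the highest library in these 5 of the 75 genes and the lowest in 69.

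Of the 30 small subunit genes tested, 16 were at least 2-fold higher in ZOL and 0 lower (median log2 fold 1.19). Rps13 had 82.9, 504 and 531 CPM. Rps27a, made as a fusion with ubiquitin, had 65.7, 384 and 498 CPM (5.85-fold higher in ZOL, 4.89 to 7.06). Rps6, the substrate of S6 kinase, had 506, 1820 and 1530 CPM (3.59-fold, 3.37 to 3.84), and Rpsa had 476, 1872 and 1876 CPM (3.93-fold, 3.68 to 4.21). In each of these genes PBS was the lowest. Rps25, used by some viral internal ribosome entry sites, had 321, 609 and 756 CPM. At the other end Rps24, mutated in some human Diamond-Blackfan anaemia, had 608, 682 and 693 CPM, and Rps14 had an estimated 1233, 1530 and 1984 CPM. In summed CPM the small subunit was 2.01-fold higher in ZOL (1.99 to 2.04) and the large subunit 2.75-fold (2.71 to 2.78), and on protein-coding reads the ratios were 1.05 and 1.43.

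ZOL+Ang2 was set against ZOL to ask what differed with Ang2 added. The ribosomal protein genes were nearly level between these libraries. Of the 75 genes, 0 were at least 2-fold higher in ZOL+Ang2, 1 was lower (Rpl7a) and 74 lay within 2-fold. Over all genes tested 16.2% were higher and 24.8% lower, 41% in all, and over those of at least 100 CPM 10.2% and 13.3%. Of the 75, 34 had more CPM and 41 had less CPM in ZOL+Ang2 than in ZOL, and 73 lay within 1.5-fold. The median log2 fold was -0.03 and the SD 0.30, against -0.02 and 1.54 for all genes and an SD of 1.22 for those of at least 100 CPM. Their summed CPM in ZOL+Ang2 was 1.023 times that in ZOL (1.020 to 1.027). It was 1.066 for the small subunit, 1.004 for the large and 0.929 for the stalk.

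Rpl7a stood apart in this comparison as well, with 341 CPM in ZOL and 105 in ZOL+Ang2 (3.24-fold lower, 3.02 to 3.48). Counting genes whose mean reached 20 CPM, the next lowest were Rpl26 (1.61-fold lower, 1.46 to 1.78), Rpl23a (1.37-fold, 1.26 to 1.48), Rpl34 with 605 and 475 CPM, and Rpl27a with 704 and 566 CPM. Under that limit lay Rpl13a (1.46-fold lower, 1.18 to 1.82) and Rpl29 (1.55-fold higher, 1.24 to 1.95). The 5 highest above it included Rps23, at the decoding centre of the small subunit, with 848 CPM in ZOL and 1231 in ZOL+Ang2 (1.45-fold higher, 1.42 to 1.49). Rps27l was 1.38-fold higher (1.32 to 1.45), Rps19, also mutated in human Diamond-Blackfan anaemia, 1.31-fold (1.28 to 1.35), and Rps14 and Rpl12 1.30-fold each. Counting intervals excluded a ratio of 1 for 64 of the genes, which with 1 pool per group says nothing of the spread between animals.

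ZOL+Ang2 against PBS shares both libraries with the comparisons above. Of the 75 genes 53 were at least 2-fold higher in ZOL+Ang2 and 2 lower, beside 44.2% and 33.1% (77.3% in all) of all genes tested and 57.4% and 12.6% of those of at least 100 CPM. On protein-coding reads the counts were 25 and 5, with median-of-ratios factors 29 and 4, and with the RPKM scaling 14 and 6. Summed CPM was 2.47-fold higher (2.45 to 2.50), and in the RPKM scaling the ratio was 1.11. The 2 lower genes were Rpl26, 9.37-fold lower (8.44 to 10.4), and Rpl21, 6.47-fold lower (5.15 to 8.13). The highest log2 folds were those of Rpl12 at 5.29, Rpl7a at 4.46 and Rpl14 at 2.99.

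**Figure D3:**
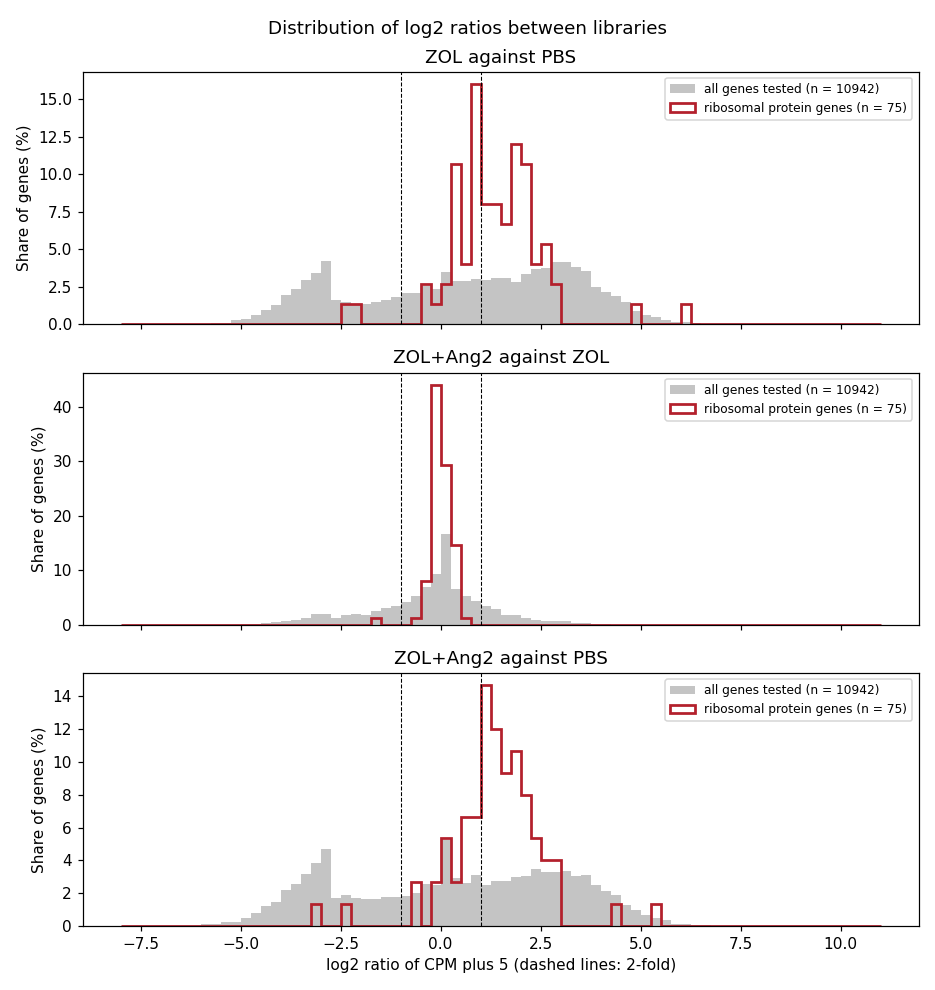
Share of genes by log2 ratio of CPM plus 5 in the 3 comparisons, for all 10942 genes tested (grey) and the 75 ribosomal protein genes tested (red outline). Dashed lines mark 2-fold. Against PBS the ribosomal protein genes centre on 1.34 and 1.33, and in ZOL+Ang2 against ZOL they gather around 0 with an SD of 0.30.

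Many reads of the family lay on processed pseudogenes. By shared stretches of 50 bases, 549 annotated processed pseudogenes were matched to 74 of the 80 genes. These copies held 7241, 175540 and 92419 reads, or 13.2%, 15.3% and 14.2% of the reads on copies and genes together. For 8 genes in PBS and 10 in each of the others the copies held more reads than the gene. No source used here says how the counting placed reads that match both.

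Rpl26, whose values ran against the family, had a near-identical copy. The gene had 1072, 1556 and 540 reads, while its 5 copies had 360, 21321 and 9046. Nearly all of the latter lay on Gm15772 (chromosome 5, 3236431 to 3236868, plus strand), with 340, 21181 and 8968 reads. The copy differs from the gene at 2 of 438 aligned bases, and 60 coding bases of both, from coding base 118, show how little sets them apart, with the difference in capitals.
Rpl26: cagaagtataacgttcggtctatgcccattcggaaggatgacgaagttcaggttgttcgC
Gm15772: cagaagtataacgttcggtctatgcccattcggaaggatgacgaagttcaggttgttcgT
In PBS the gene held most of the reads of both loci, and in ZOL and ZOL+Ang2 the copy did. With the reads of its copies added, Rpl26 was not lower but 1.89-fold higher in ZOL than in PBS and 1.42-fold higher in ZOL+Ang2. Whether reads of one locus were counted on the other was not tested.

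Rps10, a small subunit protein that is ubiquitinated on stalled ribosomes, had fewer reads than its copies in every library. The gene had 0, 53 and 24 reads and its 2 copies 54, 1932 and 983. The better covered copy, Rps10-ps2 (chromosome 16, 20822145 to 20822640, minus strand), had 45, 1681 and 836 reads and differs from the gene at 5 of 496 aligned bases, 4 of them in the 60 from coding base 379.
Rps10: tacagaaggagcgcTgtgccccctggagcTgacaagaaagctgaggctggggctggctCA
Rps10-ps2: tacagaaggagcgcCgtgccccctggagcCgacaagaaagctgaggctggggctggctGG
Gene and copies together stood 4.35-fold higher in ZOL than in PBS, and at 0.908 of the ZOL level in ZOL+Ang2.

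Rpl24, which bridges the subunits, had 11, 0 and 0 reads, while its 3 copies had 9, 274 and 152. On the gene alone it was lower in ZOL, with a lower limit of 21.2-fold by counting error, and with copies it was 1.62-fold higher. Rpl30 had 75, 465 and 229 reads against 55, 2837 and 1711 on its copies, while with copies added it was not lower but 3.01-fold higher in ZOL than in PBS and 3.16-fold higher in ZOL+Ang2. Rpl29 had 6, 167 and 145 reads against 42, 2381 and 1346. Adding copies left Rpl21 lower in ZOL (ratio 0.391, against 0.179 on the gene). Rpl21 had 185, 279 and 135 reads, and its 52 copies had 250, 1157 and 558.

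Rps2 also had fewer reads than its copies in every library, and Rplp0 in ZOL and ZOL+Ang2. The 5 copies of Rplp0 had 974, 43263 and 20782 reads beside 997, 35082 and 16611 on the gene, most of them on Gm8730 on chromosome 8. The copies of Rps2 had 380, 13190 and 6233 beside 195, 3914 and 2160. For Rpl7a the 48 copies had 145, 1060 and 873 reads, beside 0, 5353 and 923 on the gene. Gene and copies together gave Rpl7a 5.24-fold more CPM in ZOL than in PBS, and 0.501 of the ZOL level in ZOL+Ang2. For Rpl12 the sum was 12.0-fold higher in ZOL, so both remained above 2-fold against PBS. The Rpl12 copy Gm10275 differs from the gene at 0 of 634 aligned bases. It had 64, 1832 and 1367 reads, beside 14, 5863 and 4248 on the gene. Across the 75 genes, the share of 50-base stretches found elsewhere had a Spearman correlation of 0.18 with the log2 fold in ZOL against PBS and of -0.18 in ZOL+Ang2 against ZOL.

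**Figure D4:**
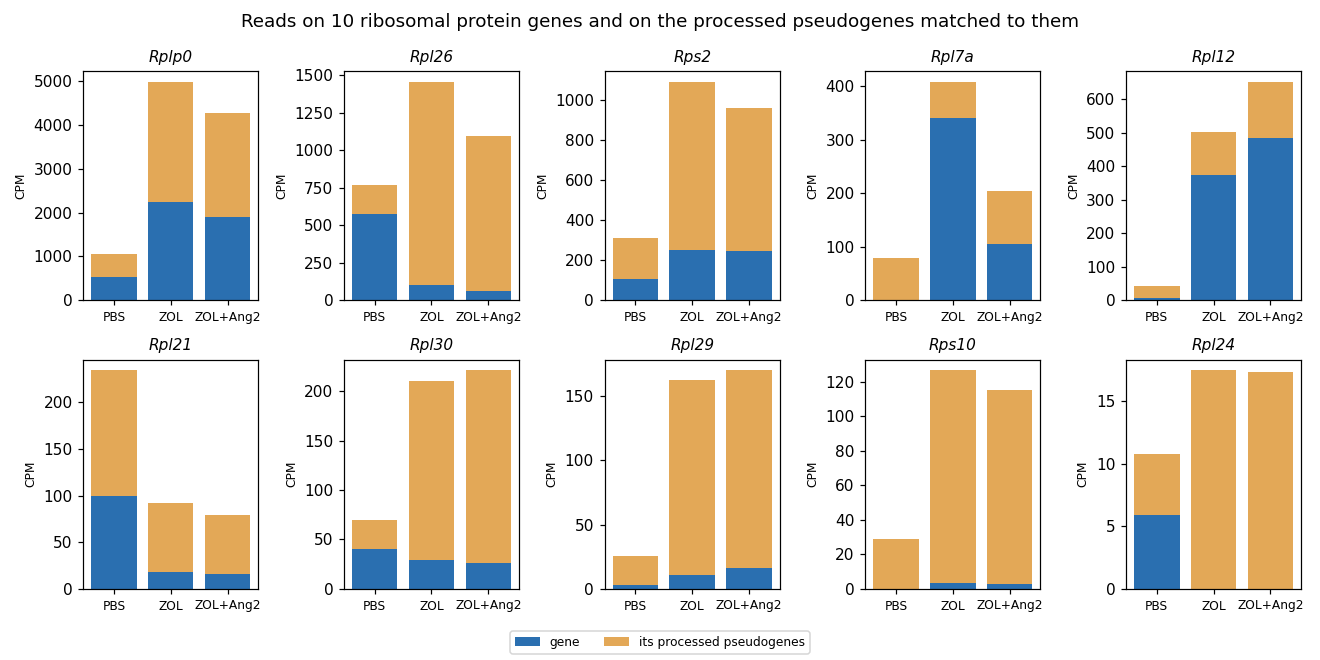
CPM on 10 ribosomal protein genes (blue) and on the processed pseudogenes matched to each (orange, stacked) in the 3 libraries, with an axis of its own for each gene. For Rpl26 the gene holds most reads in PBS and the copies hold most in ZOL and ZOL+Ang2, and for Rps10 and Rpl29 the copies hold most in every library.

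Paralogues that encode variant ribosomal proteins were mostly minor. Rpl3l, of striated muscle, and Rpl10l, of testis, had 0 reads in each library beside 26505 and 28497 reads on Rpl3 and Rpl10 in ZOL. By counting error alone 0 reads allow up to 1.61, 0.191 and 0.342 CPM. Rps27l, a target of p53, and Rpl22l1 held larger shares. Rps27l had 47.9, 239 and 331 CPM, and made up 26.3% of the level per length of Rps27 and Rps27l in ZOL and 34.5% in ZOL+Ang2. Rps27 itself had 639, 859 and 801 CPM. Rps27l was higher in ZOL+Ang2 than in ZOL while Rps27 was slightly lower, each within 1.5-fold.

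Rpl22l1, the paralogue of Rpl22, made up 22.5% of their summed level per length in ZOL and 24.4% in ZOL+Ang2. Rpl22, which is dispensable for translation in most mouse cells, had 72.1, 241 and 306 CPM. Rpl7l1, a nucleolar relative of Rpl7, had 139, 158 and 41.7 CPM (3.79-fold lower in ZOL+Ang2 than in ZOL, 3.39 to 4.24), whereas Rpl7 had 341, 1499 and 1463. Rpl36al had reads in ZOL+Ang2 alone, where its 177 reads were 6.17% of the summed level per length with Rpl36a. Rps4l, which the annotation does not class as protein-coding and which is not among the 80 genes, had 1172 reads in ZOL and 0 in the others.

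The symbols of 7 further ribosomal proteins and paralogues fall outside the rule. Rack1, a scaffold on the small subunit, had 237, 1484 and 1080 CPM. Rps3a1 had 429, 1332 and 1308 CPM, and Fau, made as a ubiquitin-like fusion, had 249, 966 and 759. Of 5 that passed the filter, 4 were at least 2-fold higher in ZOL than in PBS, and 1, Rpl7l1, was at least 2-fold lower in ZOL+Ang2 than in ZOL. Their log2 folds between ZOL+Ang2 and ZOL had a median of -0.35 and an SD of 0.84, a wider spread than the 0.30 of the family.

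Other genes of protein synthesis were counted in the same way, to be read against the 49.2% of all genes tested, and 58.5% of those of at least 100 CPM, that were higher in ZOL than in PBS. Each of these lists spread further than the ribosomal proteins between ZOL+Ang2 and ZOL. Of 17 elongation factors and other TOP messages, 14 were at least 2-fold higher in ZOL and 0 lower. In ZOL+Ang2 against ZOL 0 were higher and 1 lower (SD of log2 folds 0.51). Eef2, the translocase, had 554, 2485 and 1903 CPM. Eif3h had 5 reads in PBS and 322 and 246 CPM in the others, Pabpc1, the poly(A) binding protein, had 97.9, 526 and 810 CPM, and Pabpc4, the lower gene, had 0 reads, 62.2 and 17.7 CPM. Nap1l1 had 239, 219 and 337 CPM and Eif4b 224, 314 and 258.

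Of 25 initiation factors, 19 were higher in ZOL than in PBS and 0 lower, and 3 were higher and 4 lower in ZOL+Ang2 than in ZOL. Eif3m had 2 reads in PBS and 263 and 200 CPM in the others, Eif6 had 3 reads and 237 and 198 CPM, while Eif4g2 had 553, 318 and 244 CPM. Between ZOL+Ang2 and ZOL, Eif3d was 2.62-fold higher (2.41 to 2.85) and Eif3l 2.53-fold lower (2.40 to 2.66), both subunits of the same factor. Of 39 measured genes of ribosome assembly, 31 were higher in ZOL than in PBS and 1 lower, and in ZOL+Ang2 against ZOL 5 were higher and 11 lower (SD 1.64). Nop56, of the box C/D snoRNPs, had 2 reads in PBS and 372 and 216 CPM, and Bop1, of 60S maturation, had 17.8, 72.6 and 0.228 CPM. The ZOL+Ang2 value of Bop1 lies under 0.342 CPM, the level of 3 reads in that library.

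Genes of RNA polymerase I, of growth control and of ribosome sensing lay near the share of all genes. Of 14 genes of RNA polymerase I and its factors, 8 were higher in ZOL than in PBS and 2 lower. In ZOL+Ang2 against ZOL 3 were higher and 3 lower. Ubtf, which binds the rDNA promoter, had 4 reads in PBS and 127 and 185 CPM, and Taf1a had 81.3, 12.5 and 13.0 CPM. Of 12 measured genes of growth control, 7 were higher in ZOL than in PBS and 2 lower, and 2 were higher and 5 lower in ZOL+Ang2 than in ZOL. Myc, which drives transcription of ribosomal protein genes, had 1.08, 193 and 253 CPM. Mtor, the kinase that controls TOP messages, had 1.08, 48.7 and 1.25 CPM. The PBS values of Myc and Mtor lie under 1.61 CPM, the level of 3 reads in that library. Of 7 measured snoRNA host genes 5 were higher in ZOL than in PBS and 0 lower, and none of the 7 was past 2-fold between ZOL+Ang2 and ZOL. Of 11 genes that sense unassembled or stalled ribosomes 6 were higher in ZOL than in PBS and 0 lower, and 1 was higher and 3 lower in ZOL+Ang2 than in ZOL.

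Other large complexes were set beside the ribosome. Of 77 measured mitochondrial ribosomal proteins, 55 were higher and 7 lower in ZOL than in PBS, and 5 were higher and 21 lower in ZOL+Ang2 than in ZOL (SD 1.38). Mrpl17 had 79.1 and 170 CPM in PBS and ZOL and 0 reads in ZOL+Ang2. Of 37 measured proteasome subunits, 30 were higher and 0 lower in ZOL than in PBS, and 1 was higher and 6 lower in ZOL+Ang2 than in ZOL (SD 0.72). Psmd12 had 18.3, 261 and 63.7 CPM. The ribosomal protein genes, with an SD of 0.30, had the smallest spread of the sets named here between ZOL+Ang2 and ZOL. The sets differ in level, and the difference in spread was not tested.

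Markers of cell types and of division moved between the same libraries. Of 8 proliferation genes 7, 8 and 7 had reads, with sums of 98.5, 1496 and 1027 CPM. The 6 epithelial and carcinoma genes, of which 5, 6 and 6 had reads, summed to 639, 5530 and 5340 CPM. The 6 fibroblast genes (4, 6 and 6 with reads) summed to 343, 454 and 10780 CPM, and the 7 erythroid genes (5, 5 and 7 with reads) to 191, 7.20 and 25180 CPM. The 10 pan-endothelial genes (10, 10 and 10 with reads) summed to 3693, 4153 and 1396 CPM. The 10 leukocyte and myeloid genes (8, 7 and 9 with reads) summed to 1315, 302 and 2373 CPM. The 7 lymphatic genes (5, 5 and 5 with reads) summed to 275, 170 and 218 CPM. The 7 lymphocyte genes (4, 2 and 0 with reads) summed to 269, 0.510 and 0 CPM, and the 6 mural genes (1, 5 and 5 with reads) to 2.69, 838 and 360. The ribosomal protein genes thus stayed level between ZOL+Ang2 and ZOL while the fibroblast and erythroid sums were many times higher in ZOL+Ang2 and the endothelial sum was lower. What cell make-up or division contributes to the level of the ribosomal protein genes was not tested.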

How the data were processed

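The deposited files hold RPKM per gene, computed by the authors over an undefined library total. The submitters' processing notes name fastp, HISAT2 2.2.1, featureCounts 2.0.6 and mm10, with no roles. Per the labels' protocols, cDNA was amplified with a full-length single-cell kit and made into libraries with a TruePrep kit. The annotation, and how mates and multiple alignments were counted, is not given in the sources.

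RPKM times exon length in GENCODE M21 was divided by 1 step per library, which gave whole reads (tolerance 0.01) for 96.9%, 96.4% and 96.2% of values in PBS, ZOL and ZOL+Ang2. These reads are 1.50, 0.701 and 0.785 times the totals that the steps imply, so they may differ from the authors' counts. Of the 80 genes 76 came out whole. For Rps14, Rps18, Rps28 and Rpl17 the reads are estimates. Low genes lay on even multiples in 61.0%, 53.2% and 51.0% of cases, and 37 genes had no length. Reads carry no molecular identifiers.

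CPM used TMM factors (1.11, 0.946 and 0.953, with trims of 30% and 5%) in Python 3.11.15 with numpy 2.4.6, pandas 2.3.3 and scipy 1.17.1. A mean of 10 CPM was the lowest kept, and genes were compared by log2 of CPM plus a prior of 5, and called past 2-fold. Folds of named genes are ratios of CPM without a prior, with exact 95% binomial intervals for counting error. Where a library had 0 reads, the ratio was taken to a floor of 3 reads, or the interval's limit is given. Level between genes is CPM per kb of exon. Processed pseudogenes were matched to the gene with which they share most 50-base stretches, at least 50. No test was run, since each group is 1 library. The steps were tested on simulated reads in which few genes differed, equally many up and down. Such reads do not test the scaling where most genes differ, as they did against PBS.

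The genes, lists and rule for named genes were chosen with earlier results of these data known. Named were the 6 highest and lowest by level, the 5 highest and lowest by fold (3 against PBS for ZOL+Ang2) of at least 20 CPM, genes at 0 reads in 1 or 2 libraries, the stalk, paralogue pairs and a fixed set of known roles (Rpsa, Rps6, Rpl5, Rpl11, Rps27a, Rpl10, Rpl22, Rpl38, Rps25), and of each other list up to 2 at either end. Rps13, Rpl13a, Rps2 and Pecam1 were named after their values were seen. Some genes that the rule names are not reported here. Alternatives are in the closing section.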

Additional observations from a re-analysis of the deposited data

How the results depend on the processing

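Values follow as ZOL against PBS, ZOL+Ang2 against ZOL and ZOL+Ang2 against PBS. No paired analysis was possible because each group has 1 library, and for the same reason no library was left out.

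Scaling moved the results against PBS most. With plain CPM the median log2 fold was 1.14 and 1.11 against PBS, and the summed level 2.06, 1.030 and 2.12. With median-of-ratios factors 25 genes were higher and 5 lower in ZOL than PBS and 29 and 4 in ZOL+Ang2 than PBS, with medians of 0.50, 0.16 and 0.66 and summed ratios of 1.32, 1.17 and 1.55. On protein-coding reads these counts were 21 and 5, and 25 and 5, the medians against PBS 0.47 and 0.46, the summed ratios 1.26, 1.07 and 1.35, and the shares of reads 5.37%, 6.76% and 7.25%. For reads rescaled to the library totals behind the deposited RPKM the counts were 11 and 8, and 14 and 6, the medians 0.055, 0.14 and 0.19, and the summed ratios 0.966 (reversed), 1.15 and 1.11. Shares of the deposited RPKM summed over all genes were 2.46%, 8.92% and 8.03%. Under that scaling many genes with a ratio above 1 in CPM fell below 1 in ZOL against PBS. Among them were Rpl11 (0.785), Rps25 (0.757), Rplp1 (0.706) and Rpl36 (0.539). Of genes past 2-fold in CPM, Rplp2 and Rps4x (0.932 and 0.937) also turned direction there. Rps23 (0.964) did so in ZOL+Ang2 against PBS. With reads thinned to the smallest library 34 were higher and 4 lower in ZOL+Ang2 than PBS, the medians were 0.73, 0.16 and 0.83 and the summed ratios 1.54, 1.13 and 1.74.

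A filter of 50 CPM left 1 lower gene against PBS in both comparisons. With no filter, tried after seeing the data, the median in ZOL against PBS was 1.23. Adding pseudogenes by name gave summed ratios of 2.44, 1.067 and 2.61 and shares of 2.99%, 6.20% and 6.39%. Adding those matched by sequence, also chosen after seeing the data, gave 2.50, 1.054 and 2.64 and shares of 3.28%, 6.93% and 7.06%, left 1, 0 and 1 lower genes, and, with factors recomputed, turned Rpl26 to 1.91 and 1.49 against PBS. Without the restricted paralogues shares in ZOL and ZOL+Ang2 were 5.85% and 6.02%. With the 7 missed ribosomal proteins the summed ratios were 2.47, 1.011 and 2.50, the shares 2.97%, 6.25% and 6.36%, and 2 genes were lower in ZOL+Ang2 than ZOL. In these values the cause was not tested. Over the 14 alternatives 99 of the summary values stayed within the limit and 74 moved, and of the values of named genes 236 stayed, 564 moved and 5 reversed. The count of 5 does not hold every turn of direction. Few PBS reads widen the intervals of low genes.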
